A study of Aspergillus nidulans with 12 samples.

Results

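The most abundant transcripts of Aspergillus nidulans cultures were described in 6 groups that combine 3 strains with an early and a late harvest. Counts per gene were scaled to a library total of 1000000 counts (CPM), and the 30 genes with the highest mean CPM over the 2 cultures of a group were taken in each of the 6 groups. Ranks below are by CPM, which grows with gene length as well as with the number of transcripts. The union of the 6 lists held 88 genes of 10681 genes in the count table. The genes were thus chosen by the measured levels of all 6 groups, so their levels and changes are given below as a description. Where calls among them are given, they come from a test of all genes and are not read as support.

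Cultures labelled rimO deletion were harvested after 54 h or 17 h, cultures labelled rimO overexpression after 48 h or 17 h, and those of the wild type, strain A1153, after 48 h or 17 h. All grew at 37 °C in shaken minimal medium that held glucose (50 mM) and nitrate (10 mM), and poly(A) RNA of 2 cultures per group was sequenced. The labels tie the late harvest, 8 h after the glucose was gone, to secondary metabolism and the early one to primary metabolism. The deletion-labelled strain used glucose more slowly, so its late harvest lay 6 h after that of the other strains, and strain and hour cannot be told apart there. The sample titles carry 1 strain code for each altered strain, and the construct behind either label is not described in them. These are bulk samples, in which fewer cells of a kind and less RNA per cell cannot be told apart.

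In a filamentous fungus growing on glucose, a large part of the messenger RNA pool codes for glycolytic enzymes and ribosomal proteins. When the carbon source is used up, growth stops, and hyphae autolyse, form spores and make secondary metabolites such as the polyketide toxin sterigmatocystin. RimO is named in the series title as a homolog of yeast Rim15p, a protein kinase that acts in the entry into quiescence when nutrients run out.

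Libraries held 9269951 to 17891416 counts. Cultures of a group differed by more than counting error, with a chi-square of 10.0 to 47.3 per degree of freedom. The gene ID of rimO is in no source used here, and general knowledge points to AN7572. At the late harvest this gene stood at 55.9 and 51.0 CPM under the deletion label, at 376 and 427 CPM under the overexpression label and at 500.4 and 502 CPM in wild type. In the 17 h libraries it stood at 54.7 and 59.7 CPM under the deletion label, at 536 and 462 CPM under the overexpression label and at 86.1 and 92.2 CPM in wild type. Reads in the deletion-labelled libraries, and a 48 h level under the overexpression label below that of wild type, go against these labels in part, so strains are called by their labels throughout.

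The group's own 30 leading genes took a larger part of the counts at the late harvest. Further down the ranks the counts were less concentrated late. The leading genes that held 50% of the counts numbered 460 to 501 in the late libraries, against 310 to 364 at 17 h. In the 48 h groups the 3 highest genes alone held 10.6% of the counts under the overexpression label and 9.62% in wild type. At the late harvest the group's own 30 genes held 17.7% ± 1.25 of the counts at 54 h under the deletion label, 21.0% ± 0.0314 at 48 h under the overexpression label and 19.97% ± 0.479 at 48 h in wild type (SD, n = 2 cultures each). At 17 h they held 13.1% ± 0.124 under the deletion label, 13.5% ± 0.0917 under the overexpression label and 14.5% ± 1.42 in wild type. The 3 genes were AN0567, AN11787 and fdh (AN6525, formate dehydrogenase). Without them the remaining genes of the list held 14.8% ± 1.26 at 54 h in the deletion-labelled group, 10.4% ± 0.109 at 48 h in the overexpression-labelled group and 10.4% ± 1.07 at 48 h in wild type. At 17 h the remaining genes held 12.1% ± 0.0557 under the deletion label, 12.5% ± 0.164 under the overexpression label and 13.3% ± 1.39 in wild type. The 3 genes were picked as the highest of the 48 h lists, and AN0567 was in no other list. The 48 h shares were thus bound to lose most, and nothing is read from their place below 17 h. The 54 h mean lay above the 17 h means, with a spread that overlapped that of wild type at 17 h. Wild type at 17 h stood above the other 17 h groups through AN5245 in 1 culture, and without that gene its share was 13.4% ± 0.0523.

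**Figure D1:**
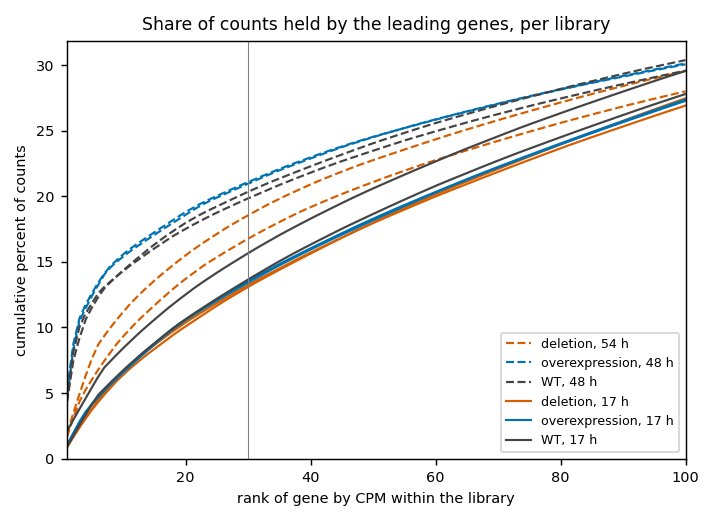
Cumulative percent of counts (y axis) held by the 100 highest genes of each library, ranked within that library (x axis), 1 line per culture, solid at 17 h and dashed at the late harvest, with a grey line at rank 30. The 4 libraries of the 48 h groups climb fastest and reach 19.6% to 21.0% with their group's own 30 genes, against 13.03% to 15.52% at 17 h.

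Lists of the same harvest shared more genes than early and late lists of the same strain. Of the 88 genes, 56 were in at least 1 late list, 42 were in at least 1 list of 17 h, and 10 were in both. The deletion-labelled list at 54 h shared 10 genes with the overexpression-labelled list and 13 with the wild-type list of 48 h, and 16 of its 30 genes were in no other list. The lists of the overexpression-labelled strain and wild type at 48 h shared 21 genes. All 3 lists of 17 h shared 20 of their 30 genes. The late list shared 5 genes with the 17 h list in the deletion-labelled, 4 in the overexpression-labelled and 8 in the wild-type strain. In all, 39 genes were in exactly 1 list and 4 were in all 6.

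**Figure D2:**
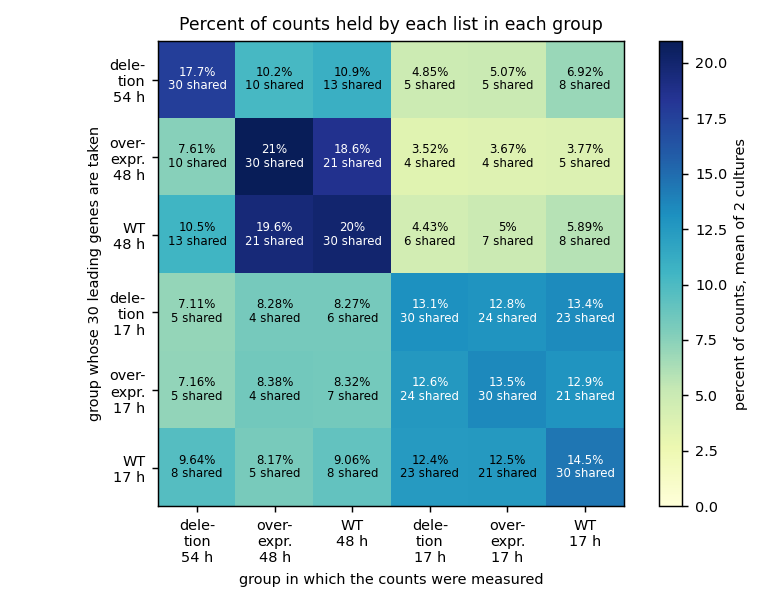
Percent of counts (colour and first line of each cell, mean of 2 cultures) that the 30 leading genes of the group on the y axis held in the group on the x axis, with the number of genes shared by their lists. The overexpression-labelled 48 h list held 18.6% of the counts in wild type at 48 h but 7.61% in the deletion-labelled group at 54 h.

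The 88 genes differed widely in how far their levels moved. The highest of the 6 group means was at least 4 times the lowest in 72 genes, at least 100 times in 26 and at least 1000 times in 14, with levels under 3 counts per group set to 3 counts. The most even member was AN3469, an entry of the histone and cytoskeleton list, at 1216 CPM in its lowest group and 2915 CPM in its highest. Within a group, the higher of the 2 cultures exceeded the lower by a median ratio of 1.01 to 1.09 over the group's own leading genes. Members outside the list of a group, some of them near 0 CPM there, were left out of that ratio.

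**Figure D3:**
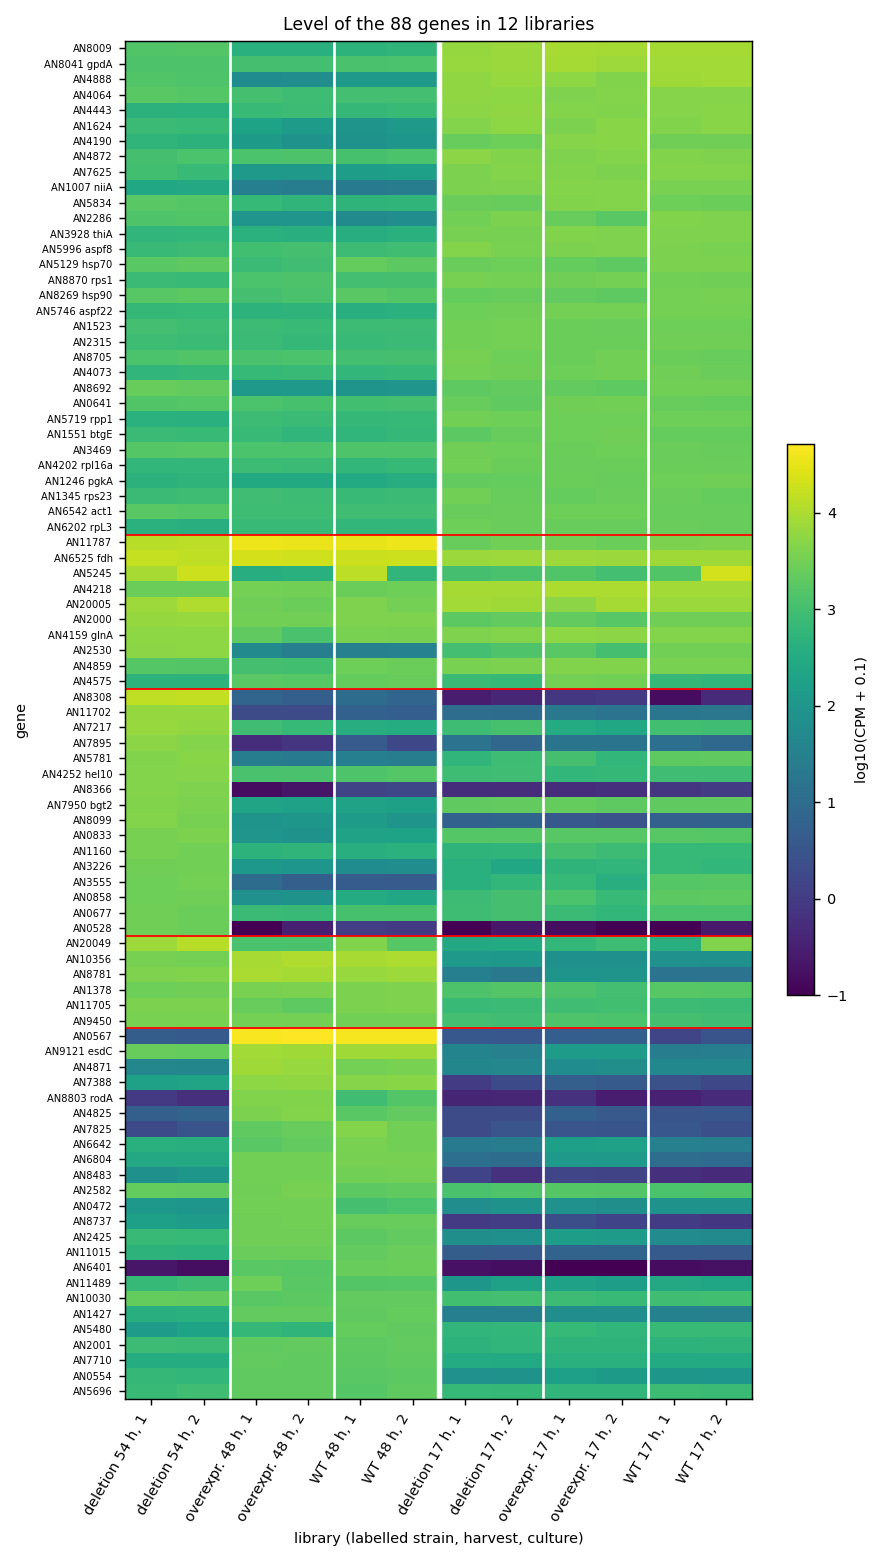
Heat map of log10(CPM + 0.1) in the 12 libraries (x axis) for the 88 genes (y axis). Red lines split the genes, from top to bottom, into 32 found in lists of 17 h only, 10 in early and late lists, 16 in the deletion-labelled 54 h list only, 6 in that list and another late list, and 24 in 48 h lists only. The third block is bright in the 2 libraries of the deletion-labelled strain at 54 h, and the last block in the 4 libraries of 48 h.

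The 4 genes in every list were AN11787, AN20005, AN4218 and fdh. AN4218 led the list in 2 groups of 17 h. At the late harvest it stood at 2745 and 2636 CPM in the deletion-labelled, 3368 and 3191 CPM in the overexpression-labelled and 2692 and 2817 CPM in the wild-type cultures, where it ranked 30, 12 and 21. At 17 h AN4218 stood at 8543 and 8568 CPM in the deletion-labelled, at 10000 and 9990 CPM in the overexpression-labelled and at 8475 and 8407 CPM in the wild-type cultures. Every late culture lay below every 17 h culture.

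Formate dehydrogenase, which oxidises formate to carbon dioxide, went the other way. fdh stood at 16520 and 14752 CPM in the deletion-labelled cultures at 54 h, 21691 and 19893 CPM in the overexpression-labelled cultures and 17648 and 19305 CPM in wild type at 48 h. At 17 h its 6 cultures lay between 7032 and 8106 CPM, below every late culture. fdh was the highest gene of the deletion-labelled group at 54 h and ranked 3 in both 48 h groups.

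Among the genes in every list, AN11787 spanned the most CPM over the late cultures, while AN20005 differed by a larger ratio. It stood at 12640 and 14230 CPM in the deletion-labelled cultures at 54 h, against 37240 and 35496 CPM in the overexpression-labelled and 31452 and 37028 CPM in the wild-type cultures at 48 h. At 17 h it stood at 2466 and 3099 CPM under the deletion label, 3114 and 2701 CPM under the overexpression label and 3885 and 4136 CPM in wild type. The 3 groups of late cultures lay above all 17 h cultures, and the deletion-labelled cultures lay below both 48 h groups. AN20005 stood at 7508 and 10659 CPM in the deletion-labelled cultures of 54 h, against 3031 and 2674 CPM under the overexpression label and 4064 and 3377 CPM in wild type at 48 h. In the 17 h cultures AN20005 stood at 8161 and 7746 CPM under the deletion label, 5325 and 8552 CPM under the overexpression label and 7253 and 7152 CPM in wild type. The 48 h cultures lay below all others, and the deletion-labelled cultures of 54 h overlapped those of 17 h.

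The lists were compared with ranks per gene length. In the authors' deposited table of log2 RPKM per group, which is per length, 18 to 21 of each 30 genes were also among the 30 highest of that group. Per length AN11787 ranked first in wild type at 17 h and in the 3 late groups, with a log2 RPKM of 15.28 in the deletion-labelled group at 54 h and 15.80 in both 48 h groups. AN11489, rank 23 by CPM in the overexpression-labelled 48 h group, ranked 2 per length there. AN7825, an entry of the sterigmatocystin list, ranked 24 by CPM and 289 per length in the overexpression-labelled group and 12 and 175 in wild type at 48 h. The log2 RPKM of the highest genes is equal in several groups (13.10 for fdh in both 48 h groups), so levels in that table look equalized between groups and only its ranks are used here.

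Genes of central carbon metabolism were among the members of the 17 h lists. Glyceraldehyde-3-phosphate dehydrogenase, gpdA (AN8041), stood late at 1290 and 1317 CPM under the deletion label, 1085 and 1015 CPM under the overexpression label and 1204 and 1228 CPM in wild type. At 17 h gpdA stood at 6866 and 6982 CPM under the deletion label, 8814 and 7696 CPM under the overexpression label and 8406 and 8262 CPM in wild type. No late culture overlapped the 17 h range. The enolase gene aspf22 (AN5746), named after the allergen of Aspergillus fumigatus, ranged from 395 to 668 CPM in the 6 late cultures, against 2856 to 3382 CPM in those of 17 h. Phosphoglycerate kinase, pgkA (AN1246), was in the wild-type 17 h list alone. It stood at 2221 and 2336 CPM under the deletion label and 2731 and 2380 CPM under the overexpression label, against 2845 and 2924 CPM in wild type at 17 h. Of the 5 members from the glycolysis and fermentation list, AN0554 went the other way and was in the overexpression-labelled 48 h list alone. That list mixes glycolysis with fermentation, and AN0554 has no reference symbol, so it is not read as a glycolytic gene. Late, AN0554 stood at 638 and 610 CPM under the deletion label, 2110 and 2060 CPM under the overexpression label and 1807 and 1838 CPM in wild type. The 6 cultures of 17 h held 77.3 to 167 CPM of it.

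AN4888, an entry of the glycolysis and fermentation list, kept a higher late level under the deletion label than in the other late groups. It stood at 1449 and 1346 CPM at 54 h under the deletion label, against 59.1 and 61.9 CPM under the overexpression label and 126 and 116 CPM in wild type at 48 h. At 17 h it stood at 5855 and 6901 CPM under the deletion label, 5486 and 4182 CPM under the overexpression label and 7899 and 8256 CPM in wild type. Its late-over-early log2 change in the overexpression-labelled strain was -6.69 ± 0.16 (SE, edgeR). AN8009, whose role the reference table does not give, was second in 2 lists of 17 h. Its late levels were 1437 and 1553 CPM under the deletion label, 425 and 425 CPM under the overexpression label and 494 and 542 CPM in wild type, so it too was highest at 54 h among the late groups. Its 17 h levels were 6582 and 7096 CPM under the deletion label, 9325 and 8692 CPM under the overexpression label and 8721 and 8585 CPM in wild type.

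The 8 genes of the glycolysis and fermentation list outside the 88 were tested with edgeR's quasi-likelihood test over all 9670 genes tested, at a Benjamini-Hochberg adjusted p under 0.05. In wild type at 48 h against 17 h, 7 of the 8 fell and 1 rose (median log2 change -1.99), where 83.2% of all genes were called and the median gene changed by -0.04. At 54 h under the deletion label against wild type at 48 h, 4 rose and 4 fell (median 0.13), where 80.0% of all genes were called and the median gene changed by -0.01. The same shares stand behind the counts of the other lists in these comparisons, with 40.3% of all genes higher and 43.0% lower in wild type at 48 h, and 40.2% higher and 39.8% lower at 54 h under the deletion label. Of 10 genes of the glyoxylate cycle, gluconeogenesis and acetate use, which feed carbon back into sugars when glucose is gone, 8 rose and 1 fell in wild type at 48 h (median 1.40), and 2 rose and 4 fell in the deletion-labelled strain at 54 h against wild type (median -0.13). None of these 10 was among the 88. Among those that fell at 54 h were acuF (AN1918, phosphoenolpyruvate carboxykinase), at 259 ± 11.9 CPM against 519 ± 57.4 CPM in wild type (log2 change -0.92 ± 0.14, edgeR adjusted p = 2.64e-05), and acuM (AN6293), at 104 ± 7.52 CPM against 196 ± 2.00 CPM (SD, n = 2; log2 change -0.83 ± 0.08, edgeR adjusted p = 1.57e-07).

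Nitrogen genes among the 88 were niiA (AN1007, nitrite reductase), which turns nitrite made from the nitrate of the medium into ammonium, and glnA (AN4159, glutamine synthetase), which turns ammonium into glutamine. At the late harvest niiA stood at 263 and 284 CPM under the deletion label, against 28.4 and 25.1 CPM under the overexpression label and 22.8 and 25.2 CPM in wild type. At 17 h niiA stood at 3789 and 4160 CPM under the deletion label, 4499 and 4389 CPM under the overexpression label and 3689 and 3734 CPM in wild type. The late levels were thus far below 17 h in every strain, and higher in both deletion-labelled cultures than in any 48 h culture. The late-over-early log2 changes of niiA were -4.12 ± 0.11 in the deletion-labelled, -7.74 ± 0.13 in the overexpression-labelled and -7.68 ± 0.13 in the wild-type strain.

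glnA was in 5 of the 6 lists, all but that of the overexpression-labelled strain at 48 h. It stood at 5478 and 5553 CPM at 54 h under the deletion label, against 2068 and 1155 CPM under the overexpression label and 3608 and 3462 CPM in wild type at 48 h. At 17 h its 6 cultures lay between 3994 and 5404 CPM. Of 9 other genes of nitrate and ammonium assimilation, 7 fell and 2 rose in wild type at 48 h against 17 h (median log2 change -2.04), where 43.0% of all genes fell and 40.3% rose. At 54 h under the deletion label against wild type at 48 h, 7 rose and 2 were not called (median 2.31), where 40.2% of all genes rose. Nitrate reductase, niaD (AN1006), stood at 48.5 ± 4.81 CPM under the deletion label at 54 h, against 0.486 ± 0.232 CPM in wild type at 48 h (SD, n = 2; log2 change 6.70 ± 0.19, edgeR adjusted p = 4.43e-13). In wild type it had stood at 802 ± 5.37 CPM at 17 h (48 h over 17 h log2 change -11.08 ± 0.18, edgeR adjusted p = 3.94e-15).

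Members with ribosomal protein symbols were found in 17 h lists only. Those matched by a list of ribosomal protein symbols were rps1 (AN8870), rps23 (AN1345), rpl16a (AN4202), rpL3 (AN6202) and aspf8 (AN5996), the acidic ribosomal protein P2 known as an allergen of Aspergillus fumigatus. Late aspf8 levels were 709 and 822 CPM under the deletion label, 968 and 1044 CPM under the overexpression label and 830 and 908 CPM in wild type. At 17 h aspf8 stood higher, at 4457 and 3701 CPM under the deletion label, 3857 and 4153 CPM under the overexpression label and 3870 and 3591 CPM in wild type. rps23, rpl16a and rpL3 were in the deletion-labelled list of 17 h alone, and all 3 lay close to the limit of the list. rps23 for example stood at 3157 and 2484 CPM there, against 2338 and 2616 CPM under the overexpression label and 2527 and 2321 CPM in wild type, so the cultures overlapped. rpp1 (AN5719), in the deletion-labelled and overexpression-labelled lists of 17 h, was not matched by that list of symbols. It showed the third-lowest late-over-early change of the deletion-labelled strain, at 435 and 418 CPM at 54 h against 3152 and 2889 CPM at 17 h (log2 change -3.08 ± 0.09). AN4443 stood beside it, at 470 and 453 CPM at 54 h against 5177 and 5920 CPM at 17 h (log2 change -3.85 ± 0.11). The list of symbols was added after the data were seen. Its other 3 genes, rpl17, rps0 and rps21, all fell in wild type at 48 h against 17 h (median log2 change -2.40). At 54 h under the deletion label against wild type at 48 h, 1 rose, 1 fell and 1 was not called. rps21 (AN3823) stood at 478 ± 41.2 CPM at 54 h under the deletion label against 357 ± 16.0 CPM in wild type at 48 h (log2 change 0.51 ± 0.13, edgeR adjusted p = 0.00305). The call was lost without the second culture of the deletion-labelled group (0.29) and without the first of wild type (0.36).

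The chaperone genes hsp90 and hsp70 were higher in the wild-type cultures of 17 h than in any other culture. hsp90 (AN8269), a chaperone of signalling proteins, stood at 2305 and 2480 CPM under the deletion label and 2235 and 2001 CPM under the overexpression label, against 3318 and 3425 CPM in wild type. hsp70 (AN5129), a chaperone that binds unfolded chains, stood at 2573 and 2802 CPM under the deletion label and 2352 and 1985 CPM under the overexpression label, against 3768 and 3790 CPM in wild type at 17 h. In the late cultures hsp90 stood at 1091 to 1844 CPM and hsp70 at 772 to 2260 CPM. All 3 heat shock genes outside the 88 fell in wild type at 48 h against 17 h (median log2 change -3.13) and rose at 54 h under the deletion label against wild type at 48 h (median 1.56). hsp78 (AN1163) stood at 688 ± 38.9 CPM at 54 h under the deletion label, against 34.4 ± 2.01 CPM in wild type at 48 h (SD, n = 2; log2 change 4.41 ± 0.17, edgeR adjusted p = 8.35e-12). Its level in wild type at 17 h was 643 ± 50.8 CPM.

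The remaining symbols of the 17 h lists were thiA, act1 and btgE. thiA (AN3928), of thiamine thiazole synthesis, stood at 358 to 601 CPM in the 6 late cultures. Its 17 h levels were 3551 and 3532 CPM under the deletion label, 4201 and 4039 CPM under the overexpression label and 3968 and 3994 CPM in wild type. Actin, act1 (AN6542), and btgE (AN1551) were in the overexpression-labelled 17 h list alone. act1 stood there at 2811 and 2806 CPM, against 2420 and 2385 CPM in wild type. btgE stood there at 2890 and 2948 CPM, against 2248 and 2345 CPM in wild type. For both genes the overexpression-labelled cultures lay above the wild-type ones. All 5 genes of the histone and cytoskeleton list outside the 88 fell in wild type at 48 h against 17 h (median log2 change -2.07), and at 54 h under the deletion label 3 rose and 2 were not called against wild type at 48 h (median 0.57).

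The late lists of the 48 h groups were led by AN0567, which was scarce elsewhere. AN0567 stood at 4.69 and 4.14 CPM in the deletion-labelled cultures at 54 h, where it ranked 7961. It stood at 46053 and 51580 CPM in the overexpression-labelled and 42864 and 44041 CPM in the wild-type cultures at 48 h, and at 1.46 to 5.13 CPM in the 6 cultures of 17 h. Both 48 h groups lay apart from all other cultures. The log2 change at 54 h under the deletion label against wild type at 48 h was -13.17 ± 0.22, and the late-over-early change was 12.85 ± 0.22 in the overexpression-labelled and 13.91 ± 0.23 in the wild-type strain. The reference table gives no symbol for AN0567.

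**Figure D4:**
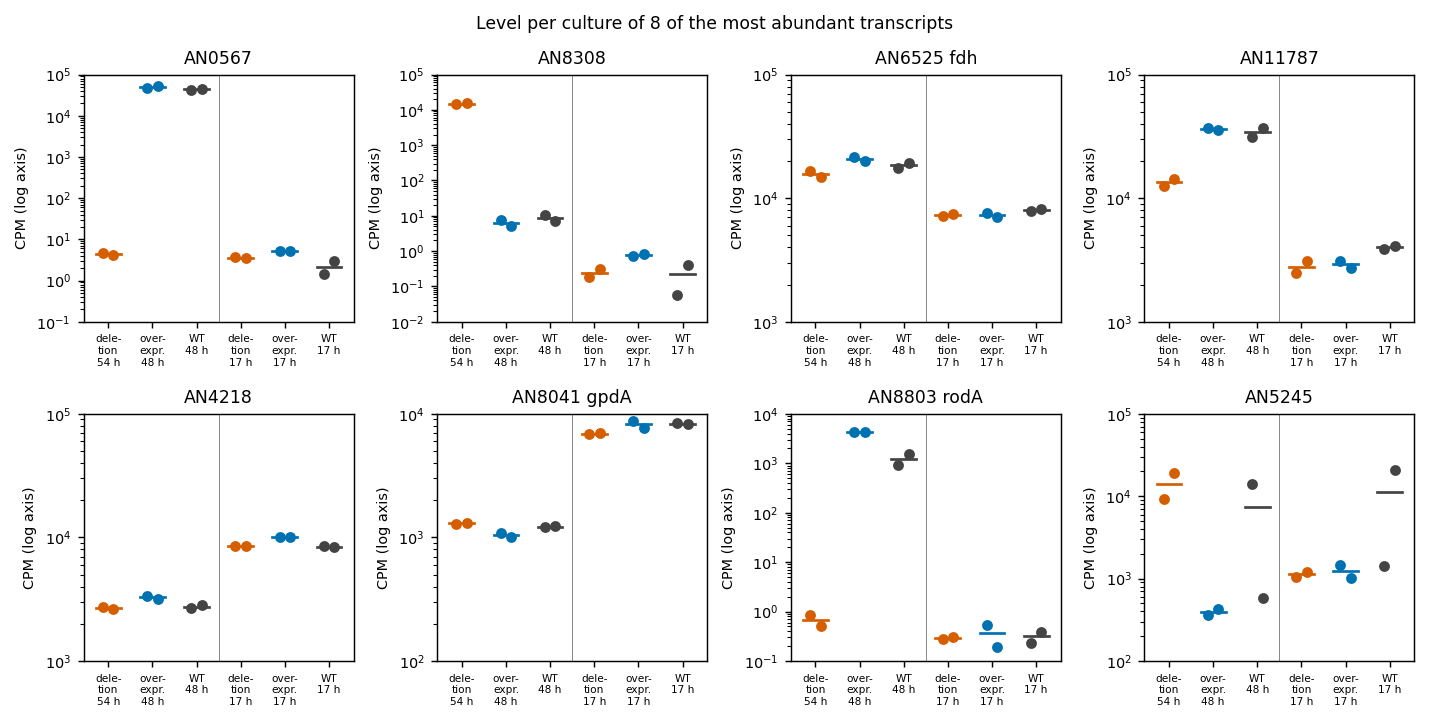
CPM per culture (y axis, log scale) of 8 genes in the 6 groups (x axis), with each point 1 culture and each bar the mean of 2. AN0567 is at 42864 CPM or more in the 48 h cultures only, AN8308 is at 14329 CPM or more in the 54 h deletion-labelled cultures only, and AN5245 splits the 2 wild-type cultures at both harvests.

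A further 10 genes were, like AN0567, in both 48 h lists and no other. These 11 genes together held 0.486% ± 0.00747 of the counts in the deletion-labelled group at 54 h, against 8.87% ± 0.364 in the overexpression-labelled and 7.92% ± 0.0947 in the wild-type group at 48 h. esdC (AN9121), named for early sexual development, stood at 2434 and 2350 CPM at 54 h under the deletion label, 8422 and 8098 CPM under the overexpression label and 7775 and 7853 CPM in wild type at 48 h. The 54 h level was intermediate, since the 17 h cultures held 25.01 to 139 CPM. AN4871, an entry of the autolysis list, stood at 44.2 and 42.8 CPM at 54 h under the deletion label, 7978 and 6934 CPM under the overexpression label and 3266 and 3622 CPM in wild type at 48 h. The deletion-labelled cultures lay inside its 17 h range of 41.5 to 65.6 CPM. AN8483 reached 74.2 and 105 CPM under the deletion label at 54 h. It stood at 3144 and 3338 CPM in wild type at 48 h, against 0.526 and 0.393 CPM at 17 h (log2 change 12.32 ± 0.27).

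AN7825, an entry of the sterigmatocystin list, stood at 1.80 and 2.98 CPM in the deletion-labelled cultures at 54 h, 2082 and 2461 CPM in the overexpression-labelled and 4486 and 3163 CPM in the wild-type cultures at 48 h. The 17 h cultures held 1.88 to 3.39 CPM, close to the deletion-labelled level at 54 h. The 20 genes of that list outside the 88 all rose in wild type at 48 h against 17 h (median log2 change 10.71, with 40.3% of all genes higher) and all fell at 54 h under the deletion label against wild type at 48 h (median -7.40, with 39.8% of all genes lower). AN7809 of that list had no count in wild type at 17 h, and its 48 h level was at least 13234-fold higher, with the absent level set to 3 counts over the group. AN7388, an entry of the antioxidant list, stood at 188 and 214 CPM at 54 h under the deletion label, 5519 and 5929 CPM under the overexpression label and 4843 and 4987 CPM in wild type at 48 h, against 0.938 to 5.31 CPM at 17 h. The other of the 2 antioxidant members, AN8692, was in the wild-type 17 h list alone and went the other way. It stood at 2408 and 2186 CPM at 54 h under the deletion label. At 48 h it stood at 126 and 120 CPM under the overexpression label and 90.8 and 97.0 CPM in wild type, against 1944 to 3177 CPM at 17 h. The 6 antioxidant genes outside the 88 were split. In wild type at 48 h 1 rose and 5 fell against 17 h (median -1.36, 1 and 3 under upper-quartile scaling). Among those called lower, sod1 (AN0241) and sod2 (AN5577) were higher at 48 h in CPM. They stood at 1133 and 271 CPM, against 1051 and 257 CPM at 17 h, so their fall (log2 changes -0.30 and -0.34) rests on the TMM scaling. Under the deletion label 3 rose and 3 fell at 54 h against wild type at 48 h (median 0.22). cat1 (AN9339) stood at 332 ± 29.4 CPM at 54 h under the deletion label, against 22.2 ± 1.25 CPM in wild type at 48 h (SD, n = 2; log2 change 3.99 ± 0.20, edgeR adjusted p = 1.75e-10). The spore catalase gene catA (AN8637) stood at 1.60 ± 0.480 CPM at 54 h, against 18.6 ± 0.996 CPM in wild type at 48 h (log2 change -3.45 ± 0.22, edgeR adjusted p = 2.36e-09).

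rodA (AN8803), the hydrophobin that coats conidia, was in the overexpression-labelled 48 h list alone. It stood at 0.842 and 0.518 CPM at 54 h under the deletion label and 4199 and 4283 CPM in the overexpression-labelled cultures, against 906 and 1530 CPM in wild type at 48 h. The 6 cultures of 17 h held 0.192 to 0.543 CPM. The overexpression-labelled cultures did not overlap those of any other group. The log2 change against wild type at 48 h was -10.69 ± 0.30 at 54 h under the deletion label and 1.75 ± 0.18 under the overexpression label, and the late-over-early change in the overexpression-labelled strain was 13.07 ± 0.33. The 6 other genes of spore wall and conidiation all rose in wild type at 48 h against 17 h (median log2 change 1.52), where 40.3% of all genes rose. All 6 fell at 54 h under the deletion label against wild type at 48 h (median -2.02), where 39.8% of all genes fell. brlA (AN0973), the regulator that starts conidiation, stood at 3.51 ± 0.799 CPM at 54 h under the deletion label, against 195 ± 34.6 CPM in wild type at 48 h (SD, n = 2; log2 change -5.71 ± 0.16, edgeR adjusted p = 3.81e-13).

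With rodA, 8 further genes were in the overexpression-labelled 48 h list alone, and the group mean of all 9 was also above 1000 CPM in wild type at 48 h. AN4825 stood at 5.17 and 6.54 CPM at 54 h under the deletion label and 3858 and 4420 CPM in the overexpression-labelled cultures, against 1828 and 2169 CPM in wild type. AN0472, an entry of the autolysis list, stood at 109 and 98.2 CPM at 54 h under the deletion label and 3075 and 3147 CPM under the overexpression label, against 1046 and 1258 CPM in wild type at 48 h (overexpression-labelled over wild type log2 change 1.38 ± 0.12). In both genes the 48 h overexpression-labelled cultures lay above the wild-type ones. All 3 autolysis genes outside the 88 rose in wild type at 48 h against 17 h (median log2 change 6.52), and 1 rose and 2 fell at 54 h under the deletion label against wild type at 48 h (median -1.70). Of the 3 trehalose and mannitol genes, none of which was among the 88, 1 rose and 2 were not called in wild type at 48 h against 17 h (median -0.07), and all 3 fell at 54 h under the deletion label (median -1.71).

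The wild-type 48 h list had 4 genes of its own, AN10030, AN5480, AN6401 and AN6642. AN6401 was nearly absent outside 48 h. It had 3 counts in all at 54 h under the deletion label, and it stood at 1762 and 1688 CPM in the overexpression-labelled and 2375 and 2638 CPM in the wild-type cultures at 48 h. At 17 h it had no count under the overexpression label and 2 counts in wild type. Wild type at 48 h stood 37385-fold above 17 h (95% exact counting interval 10349 to 308706) and 26803-fold above the deletion-labelled group at 54 h (9171 to 129973). In the overexpression-labelled strain 48 h stood at least 18634-fold above 17 h. AN5480 was lower late under the deletion label and higher late in wild type. It stood at 140 and 209 CPM at 54 h, against 569 and 614 CPM at 17 h, under the deletion label, and at 2266 and 2048 CPM at 48 h, against 760 and 746 CPM at 17 h, in wild type.

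Every late list shared AN10356, AN11705, AN1378, AN8781 and AN9450, which were in no list of 17 h. AN10356 stood at 3510 and 3371 CPM under the deletion label at 54 h, 9340 and 10609 CPM under the overexpression label and 9288 and 10394 CPM in wild type at 48 h, against 72.9 to 115 CPM at 17 h. AN8781 stood at 4056 and 4306 CPM under the deletion label, 9820 and 8597 CPM under the overexpression label and 6815 and 7465 CPM in wild type late. At 17 h AN8781 stood at 29.8 and 19.2 CPM under the deletion label and 91.8 and 92.8 CPM under the overexpression label, against 15.0 and 15.2 CPM in wild type, with log2 changes against wild type of 0.62 ± 0.16 and 2.51 ± 0.16. The other 3 genes differed less, between 1973 and 4000 CPM late, against 707 to 1696 CPM at 17 h.

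The 16 genes found in the deletion-labelled 54 h list alone held 7.57% ± 0.0994 of the counts of that group. They held 0.385% ± 0.0204 in the overexpression-labelled group and 0.424% ± 0.00643 in wild type at 48 h. At 17 h the same genes held 0.976% ± 0.0776 under the deletion label, 0.933% ± 0.142 under the overexpression label and 1.38% ± 0.00793 in wild type (SD, n = 2 each). Some were already present at 17 h, and others were nearly absent in every other group.

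AN8308 was the highest of the nearly absent ones and the second gene of its group. It stood at 14329 and 15336 CPM at 54 h under the deletion label, against 7.38 and 5.18 CPM under the overexpression label and 10.3 and 7.02 CPM in wild type at 48 h. At 17 h it stood at 0.0584 to 0.833 CPM in the 6 cultures. The log2 change was 10.82 ± 0.25 against wild type at 48 h and 15.50 ± 0.33 against 17 h of the same strain. AN11702 stood at 6543 and 6405 CPM at 54 h under the deletion label, against 1.90 to 5.78 CPM in the 48 h cultures and 10.5 to 19.4 CPM at 17 h. AN7895 stood at 5158 and 4462 CPM at 54 h under the deletion label, against 0.447 to 4.35 CPM in the 48 h cultures. For these genes the 2 deletion-labelled cultures at 54 h lay far above the other 10 cultures.

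AN8366 stood at 4525 and 4061 CPM at 54 h under the deletion label, against 1.36 and 1.61 CPM in wild type at 48 h (log2 change 11.57 ± 0.14) and 0.469 and 0.429 CPM at 17 h under the deletion label (log2 change 12.95 ± 0.16). The overexpression-labelled group at 48 h had 2 counts of it and wild type 46, a ratio of wild type over overexpression-labelled of 20.2 (95% exact counting interval 5.28 to 172). AN0528 stood at 2985 and 2638 CPM at 54 h under the deletion label, against 0.975 and 0.837 CPM in wild type at 48 h (log2 change 11.67 ± 0.24). The deletion-labelled group at 17 h had 2 counts of it, and 54 h stood 37994-fold above 17 h (10518 to 313735). AN0528 had 2 counts in the overexpression-labelled group and 28 in wild type at 48 h, a ratio of wild type over overexpression-labelled of 12.3 (3.10 to 107). Reads are not independent molecules, so these intervals hold for counting error alone.

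Of the genes already present at 17 h, bgt2 (AN7950), a cell wall glucan-modifying enzyme known from Aspergillus fumigatus, stood at 4260 and 3902 CPM at 54 h under the deletion label. It stood at 214 and 190 CPM under the overexpression label and 192 and 176 CPM in wild type at 48 h, and at 1972 to 2295 CPM in the 6 cultures of 17 h. Its level was thus above 17 h at 54 h under the deletion label and below 17 h in both 48 h groups. AN3555 stood at 2797 and 3239 CPM at 54 h under the deletion label, against 10.5 and 5.39 CPM under the overexpression label and 4.48 and 4.38 CPM in wild type at 48 h. hel10 (AN4252) was above 1000 CPM in all late cultures, at 4464 and 4665 CPM at 54 h under the deletion label, against 1203 and 1173 CPM under the overexpression label and 1353 and 1569 CPM in wild type at 48 h.

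**Figure D5:**
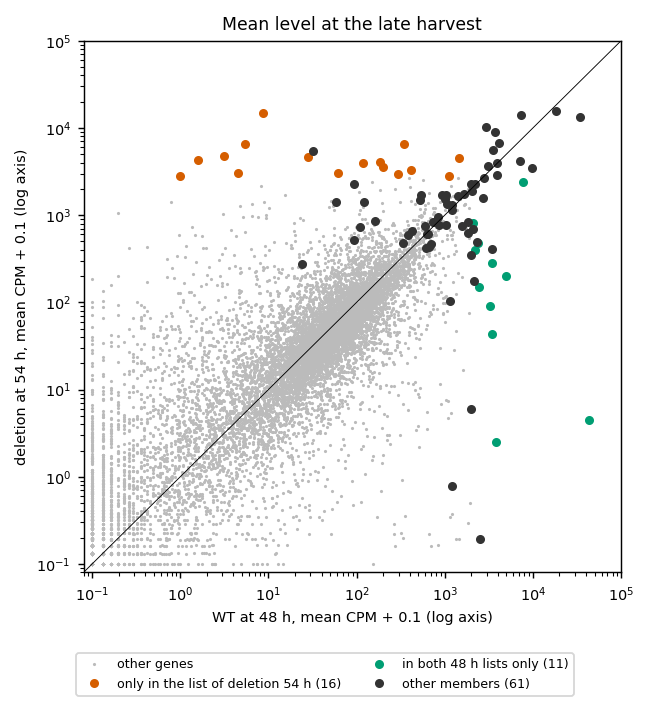
Mean CPM + 0.1 of each gene in the deletion-labelled group at 54 h (y axis, log scale) against wild type at 48 h (x axis, log scale), with the 88 genes in colour or black, other genes in grey and equal levels on the line. The 16 genes of the deletion-labelled list alone lie above the line, at 2811 CPM or more at 54 h, and the 11 genes of both 48 h lists alone lie below it.

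At 54 h under the deletion label against wild type at 48 h, 74 of the 88 genes were called with edgeR, 42 higher and 32 lower, where 80.0% of all 9670 genes were called, 40.2% higher and 39.8% lower. At 48 h under the overexpression label 40 were called against wild type, 14 higher and 26 lower, where 41.1% of all genes were called, 23.0% higher and 18.1% lower. Under upper-quartile scaling the split was 21 higher and 25 lower. Late against early, 77 were called in the deletion-labelled strain, 42 higher and 35 lower, where 80.6% of all genes were called (41.3% higher, 39.3% lower). In the overexpression-labelled strain 84 were called late against early, 35 higher and 49 lower, where 81.8% of all genes were called (38.2% higher, 43.6% lower). In wild type 84 were called at 48 h against 17 h, 36 higher and 48 lower, where 83.2% of all genes were called (40.3% higher, 43.0% lower). All 88 genes passed the filter on low counts. Because the lists were drawn from these same levels, nothing is read from these counts. The labels call the samples duplicate cultures, and the p-values measure the spread between them.

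In wild type, AN3555 and AN2530 showed the lowest late-over-early changes beside niiA. AN3555 stood at 4.48 and 4.38 CPM at 48 h, against 1591 and 1677 CPM at 17 h (log2 change -8.94 ± 0.35). AN2530 stood at 30.2 and 34.0 CPM at 48 h, against 3143 and 3171 CPM at 17 h (log2 change -7.03 ± 0.33). AN3555 was also low late in the overexpression-labelled strain, at 10.5 and 5.39 CPM at 48 h against 677 and 403 CPM at 17 h (log2 change -6.37 ± 0.32). In the deletion-labelled strain both genes were higher late, with AN2530 at 5150 and 5656 CPM at 54 h, against 1016 and 1392 CPM at 17 h.

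Under the deletion label 13 of the 88 genes were called against wild type at 17 h, 1 higher and 12 lower, where 1.66% of all genes were called (0.362% higher, 1.3% lower), and nothing is read from this count either. Without the first deletion-labelled culture 1 of the 88 was called, without the first wild-type culture 5 and without the second 3, while DESeq2 called 21. The 12 lower genes were hsp70, hsp90, AN0858, AN11702, AN11787, AN2000, AN2530, AN3226, AN3555, AN5781, AN8009 and AN8692, and the higher one was AN10356. AN3555 stood at 420 and 614 CPM under the deletion label, against 1591 and 1677 CPM in wild type at 17 h (log2 change -1.73 ± 0.24, not called without the first deletion-labelled culture at -1.47). AN8483 and AN0567 had the highest log2 changes, 0.80 ± 0.53 and 0.67 ± 0.23, at levels of 5 CPM or less, and neither was called. Of the 12 lower genes AN0858, AN11702, AN3226, AN3555 and AN5781 were the ones found in the deletion-labelled 54 h list alone. The 88 genes were chosen by their level in these same cultures. Calls on single members and this overlap are therefore a description only.

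Under the overexpression label at 17 h 40 of the 88 genes were called against wild type, 20 higher and 20 lower, where 29.5% of all genes were called, 15.1% higher and 14.5% lower. These comparisons share the wild-type cultures with the one above. AN6804 stood at 117 and 118 CPM under the overexpression label, against 10.8 and 9.91 CPM in wild type at 17 h (log2 change 3.40 ± 0.10), and reached 3091 and 3134 CPM in the overexpression-labelled and 3409 and 3391 CPM in the wild-type cultures at 48 h. AN6642 stood at 169 and 184 CPM under the overexpression label, against 30.5 and 27.7 CPM in wild type at 17 h (log2 change 2.50 ± 0.12). Under the deletion label these 2 genes stood at 11.8 and 10.2 CPM and at 22.8 and 25.8 CPM at 17 h. AN4575 was in the overexpression-labelled list of 17 h and the wild-type list of 48 h: it stood at 3338 and 3058 CPM under the overexpression label at 17 h, against 622 and 567 CPM in wild type. AN5834 was in the overexpression-labelled 17 h list alone, at 4268 and 4433 CPM, against 2798 and 2688 CPM in wild type.

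AN5245 and AN20049 differed widely between cultures of the same group. Late, AN5245 stood at 9151 and 19105 CPM under the deletion label, 360 and 428 CPM under the overexpression label, and 14133 CPM in the first and 580 CPM in the second wild-type culture. At 17 h it held 1011 to 1450 CPM in the 4 cultures of the labelled strains, and 1434 CPM in the first and 20823 CPM in the second wild-type culture. Its place at the head of the wild-type 17 h list thus rests on 1 culture, and it ranked 127 in the other. AN20049 differed between the cultures in the same direction, at 7673 and 12879 CPM at 54 h under the deletion label, 4238 and 1671 CPM in wild type at 48 h and 402 and 4377 CPM in wild type at 17 h.

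Few other genes split these cultures. Of 3447 genes with at least 50 CPM in a wild-type 17 h culture, 5 were at least 4 times higher in the second, namely AN5245, AN20049, AN20048, AN20014 and AN1236, named after their values were seen. In the first and second wild-type culture AN20048 stood at 1038 and 46.2 CPM at 48 h, against 182 and 2727 CPM at 17 h. Of 3991 such genes at 48 h, 3 were at least 4 times higher in the first culture, AN5245, AN20048 and AN0771. AN5245 had a log2 change of -3.39 ± 1.14 under the deletion label against wild type at 17 h, -3.29 ± 1.14 under the overexpression label at 17 h and -4.30 ± 1.19 under the overexpression label at 48 h. Without the wild-type culture of the high level, the changes under the overexpression label were -0.31 at 17 h and -0.59 at 48 h and were not called. AN20049 had a log2 change of -3.08 ± 0.74 under the deletion label and -1.80 ± 0.71 under the overexpression label at 17 h, and neither was called. Without the second wild-type culture the AN20049 changes were -0.48 under the deletion label and 0.79 under the overexpression label. The deletion-labelled change of AN5245 at 17 h, which was not called either, was -0.41 without that culture.

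The limit of the lists fell in a dense range of levels. In the deletion-labelled group at 17 h hsp70 (2687 CPM) and rpL3 (2680 CPM) were the last inside, and AN10740 (2635 CPM) and hem13 (2611 CPM) the first outside. In the overexpression-labelled group at 17 h AN3469 (2788 CPM) and AN2315 (2693 CPM) were inside, and AN3954 (2635 CPM) and AN1523 (2631 CPM) outside. In wild type at 17 h pgkA (2885 CPM) and AN1523 (2882 CPM) were inside, and rpp1 (2825 CPM) and hem13 (2771 CPM) outside. In the deletion-labelled and overexpression-labelled groups the step across the limit was smaller than the SD of either gene beside it.

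Levels beside the limit were also close in the late groups. In the deletion-labelled group at 54 h AN0528 (2811 CPM) and AN4218 (2690 CPM) were inside, and AN7148 (2667 CPM) and AN7166 (2641 CPM) outside. In the overexpression-labelled group at 48 h AN0554 (2085 CPM) and AN5696 (2077 CPM) were inside, and AN8782 (2066 CPM) and AN7181 (2064 CPM) outside. In wild type at 48 h AN5480 (2157 CPM) and AN2001 (2073 CPM) were inside, and AN2425 (2072 CPM) and AN10581 (2069 CPM) outside. A gene near the limit can therefore be in 1 list and out of another at nearly the same level.

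Members were found on all 8 chromosomes. Of the 79 found in the reference gene table, 4 lay on chromosome VI and 15 each on chromosomes II and VIII, 0.364% to 1.11% of the genes of a chromosome. Directly neighbouring members were AN2000 with AN2001 and AN4871 with AN4872. AN2000 was in 4 lists, at 6441 and 6821 CPM at 54 h under the deletion label, while AN2001 was in both 48 h lists, at 2073 and 2158 CPM under the overexpression label and 1971 and 2174 CPM in wild type. AN4871 was in the 2 lists of 48 h and AN4872 in the 3 of 17 h, so neighbours were not high in the same groups there. A gene symbol was given for 21 of the 88 (23.9%), against 7.29% of all genes.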

How the data were processed

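Libraries of 12 cultures were prepared from poly(A) RNA with a Nextera kit, per the labels. Trimmomatic, BWA, HTSeq, limma and edgeR are named in the submitters' processing notes, with no version. The genome build and the strandedness of counting are not given in the sources used here. The authors deposited counts, whole numbers of reads per gene and library, and a table of log2 RPKM per group, with no column per culture, which served for ranks only.

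Of 10727 entries, 15 that repeated an identifier and 31 upstream open reading frames (0.000199% of counts) were left out. CPM is the count divided by the column sum, times 1000000. The 88 genes and the gene lists were chosen with earlier results of these data known. A quasi-likelihood model of edgeR 4.0.16 (under R 4.3.3) was fitted to the counts of all 12 libraries at once, with TMM scaling and filterByExpr (9670 genes, common biological coefficient of variation 8.20%, 6 residual and 7.73 prior degrees of freedom). A gene counts as called when its Benjamini-Hochberg adjusted p over all genes is under 0.05. The SE was taken from the change and its F statistic (change divided by the root of F). TMM takes most genes as unchanged, whereas most were called between harvests: the median gene of the late-over-early changes shifts by 0.09 to 0.20 under RLE or upper-quartile scaling, and late changes are to be read relative to that. CPM is not TMM-scaled. The TMM factors over all genes were 0.845 to 0.918 at 17 h and 1.06 to 1.20 late, so late-over-early changes from the fit lie below those in CPM.

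The genes named are the 5 highest per group, those in all 6 lists, up to 3 in 1 list alone, the 3 largest and smallest changes per comparison, ranks 29 to 32, members with a symbol, AN7572 and up to 2 called genes per list, with some left out for length. Other members were named after their values were seen. Lists were written from general knowledge (64 named entries, of which 28 have a reference symbol and 19 the identical one). Those of ATP synthase, ribosomal proteins and elongation factors found no gene. Symbols were read from the reference table for assembly ASM1142v1, which matched 9970 genes. A 0 count was bounded by 3 counts over the group, and 1 to 3 counts got a 95% exact interval. On simulated counts of 9670 genes for the 17 h deletion comparison, 19 of 50 genes with a log2 change of 0.5 were found, 49 of 50 with a change of 1, and all 50 with a change of 2 and of 4. Calls on unchanged genes numbered 12. The simulation gave every gene the same spread, unchanged genes the same mean in all 6 groups, and changed genes a minimum level. The measured counts differ in this, so these rates are not the power in these data. Tried as alternatives were DESeq2 1.42.0, limma-voom (limma 3.58.1), scaling by RLE or the upper quartile, other filters, fits restricted to the pair of groups, a replicate block, lists of 20 or 50 genes, ranks by log2 RPKM, and each culture left out.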

Additional observations from a re-analysis of the deposited data

Results flagged for a closer look

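In 15 of the 88 genes both late cultures of the deletion-labelled strain lay on one side of its 17 h cultures, while the wild-type cultures moved to the other side. The values below are the late-over-early log2 change of the deletion-labelled strain minus that of wild type. They carry the 6 h difference in harvest, and the difference itself was not tested. The deletion-labelled strain was higher late and wild type lower in AN3555 (11.22), AN11702 (11.12), AN7895 (10.71), AN5781 (9.01), AN2530 (8.94), AN3226 (6.69), bgt2 (AN7950, 4.57), AN0858 (4.52), AN0833 (4.35), AN7217 (4.29), AN1160 (3.49), AN0677 (1.83) and glnA (AN4159, 0.92). It was lower late and wild type higher in AN5480 (-3.12) and AN4575 (-2.37). Sides were judged by CPM, without TMM scaling, whereas the changes come from the TMM-scaled fit. For glnA the change of the deletion-labelled strain was only 0.14, against -0.79 in wild type. That rise is of the size of the shift between scalings in this comparison (0.09 to 0.16).

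The same opposite movement was seen between the overexpression-labelled strain and wild type in 3 genes, also without a test of the difference. The late-over-early log2 change of the overexpression-labelled strain minus that of wild type was 2.85 in AN7217, which was higher late under the overexpression label. It was -2.84 in AN4575 and -3.40 in AN8366, which were lower late under that label. AN8366 had 2 counts in the overexpression-labelled group at 48 h, on which its value rests.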

How the results depend on the processing

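Cultures carry the numbers 1 and 2 in every group, and deviations of same-numbered cultures correlated at -0.15 to 0.10 over genes, so the numbers are not taken as pairs. With a replicate block the number of the 88 genes called was 12 under the deletion and 38 under the overexpression label at 17 h, 74 and 39 late, and late against early 77, 84 and 84 in the deletion-labelled, overexpression-labelled and wild-type strains. For the deletion-labelled comparison at 17 h DESeq2 called 21 in place of 13, and leaving out 1 culture called 1 to 13. The ranges without 1 culture were 30 to 33 for the overexpression label at 17 h, 68 to 71 and 29 to 39 late, and 76 to 77, 83 to 84 and 84 to 85 late against early.

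The share of counts with genes ranked by the authors' log2 RPKM was 16.1%, 19.6% and 18.5% late and 11.7%, 12.1% and 12.9% at 17 h (deletion-labelled, overexpression-labelled, wild type). With genes ranked in 1 culture and the share taken in the other it was 12.9% in the deletion-labelled group at 17 h, 20.9% and 20.8% in the overexpression-labelled group and 18.8% in wild type at 48 h. In 1 culture alone the share ranged from 13.1% to 13.2% at 17 h under the deletion label and from 21.0% to 21.1% at 48 h under the overexpression label. The union held 58 genes with 20 genes per group, 141 with 50 and 87 to 90 without 1 culture. Ranked by log2 RPKM it held 80 genes, of which 56 were among the 88 (63.6% of the 88, 70.0% of the 80).

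The log2 change of AN20049 under the overexpression label at 17 h turned to 0.79 without the second wild-type culture and was called at -2.68 without the first. Under the deletion label it was called with DESeq2, with no filter and, at -3.95, without the first wild-type culture. The calls of AN5245 under the overexpression label were lost with limma-voom and without 1 culture. The cause of these shifts was not tested beyond the culture left out. Of 658 recomputed changes of single genes, 637 kept their direction and call.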
